A study of Oryza sativa with 8 samples.

Results

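In rice cultivar 93-11, 1760 chromatin regions carried an ATAC-seq peak in both heat stress (HS) libraries and in neither library from normal conditions (Normal). These HS-only regions were 3.17% of the 55565 regions obtained by merging the peaks of the 4 libraries on chromosomes 1 to 12. The members were chosen by the presence and absence of peaks, so their opening under HS is the rule itself and was not tested. A missing peak means that the signal stayed below the calling threshold of that library, not that the chromatin was closed.

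ATAC-seq uses the transposase Tn5, which inserts adapters where DNA is free of nucleosomes, so that reads pile up at promoters, enhancers and other regulatory DNA. In plants, heat activates heat shock transcription factors, which bind heat shock elements upstream of chaperone genes, and the DNA at such sites becomes more accessible. Sites that open under a stress are commonly read as candidates for regulatory DNA used under that stress, whereas sites open in every condition often lie at promoters of genes that are broadly expressed.

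93-11 is an indica rice. The libraries came from nuclei of the aerial parts of 3-week-old seedlings grown hydroponically under short days. The HS seedlings spent 36 h at 45 °C, at high humidity and in weaker light than during growth. The temperature, light and humidity of the Normal seedlings in those hours were not given, so heat, light and humidity cannot be told apart. Each group had 2 libraries, described by the study as biological replicates, and the japonica cultivar Nipponbare (Nip) was treated in the same way.

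The 93-11 lists held 30632 to 31584 peaks under Normal and 22684 to 24940 under HS on the 12 chromosomes. The number of reads per library is unknown. The background rate of a library is the pileup of fragments that chance alone would give at any base, and it was recovered from the repeated peak values. By this definition it rises with the number and length of the fragments, so unlike rates mean that peaks were called at unlike coverage. The Normal libraries had a rate of 6.39 ± 0.397 (SD, n = 2). In the HS libraries it was 4.53 ± 0.180 (SD, n = 2), which differed from Normal by -29.1%. The HS lists were thus the shorter lists and had the lower background, and the part of this difference in the HS-only class was not tested. The measures given for a peak are its −log10 p, its percentile among the peaks of its own list, and its fold over the background rate of its library. Positions are counted from 1 on the chromosomes as the 93-11 lists name them. The build was not given in the sources used here, and gene annotation and sequence were not analysed here.

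To judge the number of HS-only regions, they were set beside the regions found in exactly 1 Normal and 1 HS library, which have the same form but do not follow the condition. There are 4 such mixed pairs. Normal replicate 1 with HS replicate 1 held 1214 regions (2.18% of all regions), and Normal replicate 1 with HS replicate 2 held 971 (1.75%). Normal replicate 2 held 1113 with HS replicate 1 (2.0%) and 984 with HS replicate 2 (1.77%). HS-only regions were therefore 1.45 times as many as the largest mixed pair and 1.64 times the mean of the 4 pairs, which was 1070.5 regions. Normal-only regions, the opposite class, numbered 5756 (10.4%), or 3.27 times the HS-only regions. No p-value was computed, because a two-sided exact permutation test over 2 against 2 libraries cannot go below 0.333.

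The numbers depended on which peaks and libraries were kept. When each list was limited to peaks of at least 4 times its own background, 1281 regions were HS-only, against 195 to 311 in the mixed pairs. Among the 10000 strongest peaks of each list, 1148 regions were HS-only, against 195 to 221 in the mixed pairs. The ratio to the largest mixed pair thus rose from 1.45 to 4.12 and 5.19, and HS-only regions remained fewer than Normal-only regions at both limits. These limits also remove weak Normal peaks, so the classes they give are not subsets of the members. Of the 1760 members, 321 had both HS peaks at 4 times the background. Most of the 1281 regions therefore had a weaker Normal peak in the full lists and are not members. Leaving out a Normal library put the ratio below 1. It was 0.872 without Normal replicate 1 and 0.825 without Normal replicate 2, where the mixed classes also take in regions with a peak in the library left out. In the same way the number of HS-only regions rose to 2794 and 2738 without Normal replicates 1 and 2 and to 6937 and 8650 without HS replicates 1 and 2. Without HS replicate 2 it was 1.12 times that of Normal-only regions. That ratio is not like for like, because HS-only then needs a peak in 1 HS library and Normal-only in both Normal libraries.

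**Figure D1:**
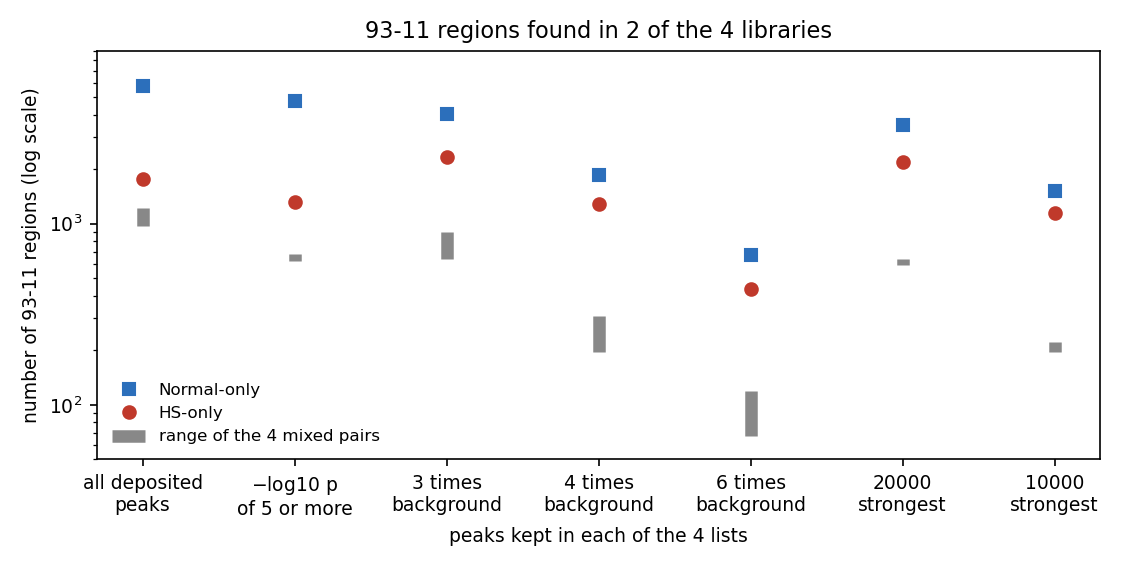
Number of 93-11 regions (log scale) with peaks in both HS and no Normal libraries (red circles), in both Normal and no HS libraries (blue squares), and in exactly 1 Normal and 1 HS library (grey bars, lowest to highest of the 4 pairs), by the peaks kept in each list. With all deposited peaks the HS-only number is 1760 and the highest mixed pair 1214, and among the 10000 strongest peaks the numbers are 1148 and 221.

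Most sites seen in 1 HS library without a Normal peak did not recur in the other. Of the 8493 regions with a peak in HS replicate 1 and in neither Normal library, 20.7% also had a peak in HS replicate 2 (95% Wilson interval 19.9 to 21.6). Of the 6783 such regions of HS replicate 2, 25.9% also had one in HS replicate 1 (24.9 to 27.0). In the mixed pairs, the same share counted from an HS library was 14.2% to 16.4%. Between the Normal libraries it was 40.2% and 42.2%. These intervals cover counting error over regions only, and regions of 1 library are not replicates. Each share divides a class size given above by that class plus the regions of 1 library alone. The shares are thus no support apart from those counts. In these terms, the recurrence between HS libraries lay above that of every mixed pair and below that between Normal libraries.

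HS-only regions were mostly short, weak sites. Their median width was 320 bp, and the middle 90% lay between 177 and 607 bp, against medians of 310.5 to 317 bp in the mixed pairs, 350 bp in Normal-only regions and 540 bp in regions shared by all 4 libraries. The HS-only median was 189 bp when either HS library was left out, since a region then needs the peak of a single HS library. Merging also widens the shared regions, which join peaks of 4 libraries. In HS replicates 1 and 2, the strongest peaks of HS-only regions had median widths of 225 and 222 bp. At shared regions these widths were 315 and 319 bp. The strongest peak in a region had a median −log10 p of 5.73 in HS replicate 1 and 5.69 in HS replicate 2. In percentiles of the list these medians were 42.7 and 38.5. In fold over background they were 3.76 and 3.65, against 5.25 and 5.23 at the 9503 shared regions in the same libraries. Peaks of the shared regions thus stood higher in both HS lists.

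A minority of the HS-only regions was strong in both HS libraries, and this minority had little counterpart in the mixed pairs. Both peaks reached 4 times the background in 321 HS-only regions (18.2%), against 23 to 39 regions (2.37% to 3.21%) per mixed pair and 1048 Normal-only regions (18.2%). Both reached 6 times the background in 20 HS-only regions and 34 Normal-only regions, and in 0 regions of each mixed pair. Fold is taken over the background of each library, which was lower under HS, so equal folds do not mean an equal −log10 p. The lower of the 2 percentiles was at least 75 in 60 HS-only regions (3.41%), against 1 to 4 per mixed pair and 348 Normal-only regions (6.05%). At the other end, it was under 25 in 794 HS-only regions (45.1%), against 60.1% to 60.8% of the mixed pairs and 30.5% of Normal-only regions. By percentile, HS-only regions thus stood between the mixed pairs and Normal-only regions. These counts use the same peaks as the rule and are a description.

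**Figure D2:**
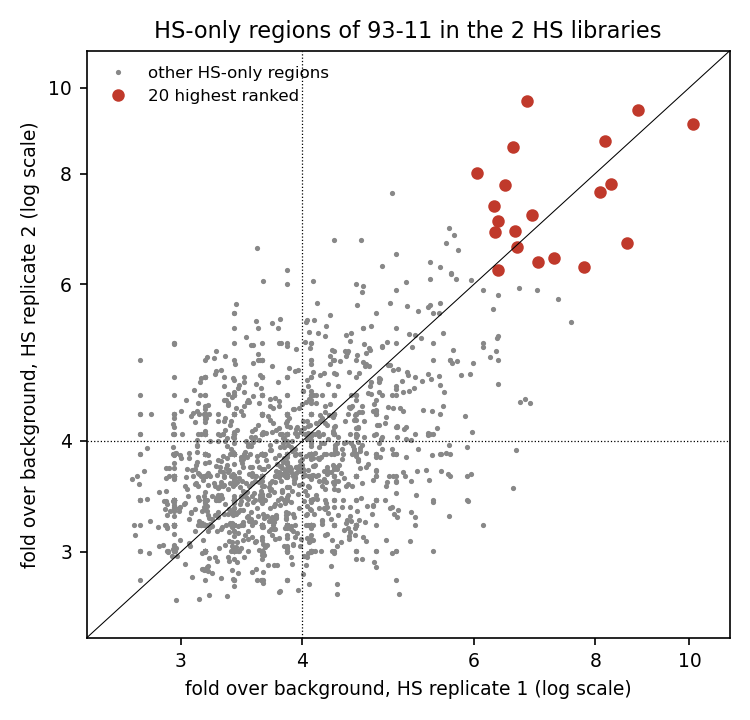
Fold over the background rate of the strongest peak in HS replicate 1 (horizontal) and HS replicate 2 (vertical), both on log scales, for each of the 1760 HS-only regions, with the 20 highest ranked in red, dotted lines at 4-fold and the line of equality. In 321 regions both folds are at least 4, and the cloud is broad, with a correlation of 0.347 between the percentiles of the 2 libraries.

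Taken over the whole class, the HS libraries placed and ranked these sites more alike than mixed pairs did. In 1066 of the HS-only regions (60.6%) the HS peaks overlapped by at least 50% of each peak, against 53.0% to 56.3% of the mixed pairs and 70.8% of Normal-only regions. The peak centres lay a median of 56.5 bp apart, against 67.5 to 70.5 bp in the mixed pairs and 51 bp between the Normal libraries. In 3 HS-only regions the strongest HS peaks did not overlap at all. Across the 1760 regions, the percentiles in the HS libraries were correlated with a Pearson r of 0.347 and a Spearman rho of 0.321, against a Pearson r of 0.133 to 0.180 across the regions of a mixed pair. All regions of a class come from the same pair of libraries, so these correlations describe the lists. Among the 321 regions of at least 4-fold in both libraries, 82.6% had peaks overlapping by 50% of each, with centres a median of 33.5 bp apart. Among the other 1439 the values were 55.7% and 65 bp. For these, which are most of the members, the overlap was within the range of the mixed pairs and the distance just below it.

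The 20 HS-only regions with the highest lower-of-2 percentile lay on 10 chromosomes. They were 139 to 563 bp wide, with a −log10 p of 12.99 to 29.4 and a fold of 6.04 to 10.1 in the HS libraries. The lowest −log10 p that the Normal lists contain at all is 2.92, and the lowest in the HS lists is 3.06, so any HS peak would exceed the former. The lower of the percentiles of these 20 regions ran from 85.6 to 95.9. The −log10 p was higher in HS replicate 1 in 7 of the 20 and higher in HS replicate 2 in the other 13. Within a region the folds of the HS libraries differed by a factor of at most 1.42.

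The highest ranked region lay on chromosome 7 from 23419392 to 23419829, with a −log10 p of 29.4 in HS replicate 1 and 26.4 in HS replicate 2. Its folds of 10.1 and 9.09 made it the only HS-only region above 9 times the background in both libraries. Next came the region on chromosome 5 from 2026775 to 2027280, with folds of 8.85 and 9.44. A Normal peak ended or began 405 bp from this region, closer than for any other of the 20. The region ranked 3, on chromosome 4 from 22529320 to 22529812, had folds of 8.18 and 8.71 and its nearest Normal peak at 1387 bp. These 3 were the HS-only regions with at least 8 times the background in both HS libraries, a level that 2 Normal-only regions and no mixed-pair region reached in their own lists.

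The regions ranked 4 and 5 were narrower. On chromosome 1 from 19013628 to 19013784, a site of 157 bp had folds of 8.31 and 7.79. On chromosome 2 from 20369117 to 20369408, the folds were 8.10 and 7.62, and no Normal peak lay within 5 kb. Of the next 5, the region on chromosome 5 from 25124747 to 25125067 had folds of 6.89 and 7.19. The region on chromosome 4 from 13856912 to 13857112 differed most between the libraries, with 6.81 in HS replicate 1 and 9.66 in HS replicate 2. It was also the farthest of the 20 from a Normal peak, with the nearest 12271 bp away. The region on chromosome 6 from 10302800 to 10303216 had folds of 6.62 and 6.89. On chromosome 12 from 23202992 to 23203236 they were 6.59 and 8.57, and on chromosome 1 from 8133301 to 8133661 they were 8.63 and 6.68. The first 10 regions thus kept a fold of at least 6.59 in both libraries.

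The remaining 10 were closer to each other in strength. Those on chromosome 4 (29005835 to 29006273), chromosome 1 (28882177 to 28882538) and chromosome 5 (14603770 to 14603908) had lower folds of 6.47, 6.61 and 6.35 and higher folds of 7.77, 6.65 and 7.08. Those on chromosome 12 (2479069 to 2479331), chromosome 1 (1748531 to 1748990) and chromosome 11 (675397 to 675942) had lower folds of 6.31, 6.29 and 6.42. The last 4 were on chromosome 3 (31374408 to 31374888 and 37120338 to 37120900), chromosome 5 (1645767 to 1646124) and chromosome 8 (21442238 to 21442456), with lower folds of 6.37, 6.04, 6.27 and 6.22. Chromosomes 1 and 5 each held 4 of the 20 and chromosome 4 held 3. A Normal peak lay within 1 kb of 4 of the 20 and within 5 kb of 13, and a region shared by all 4 libraries within 5 kb of 10.

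**Figure D3:**
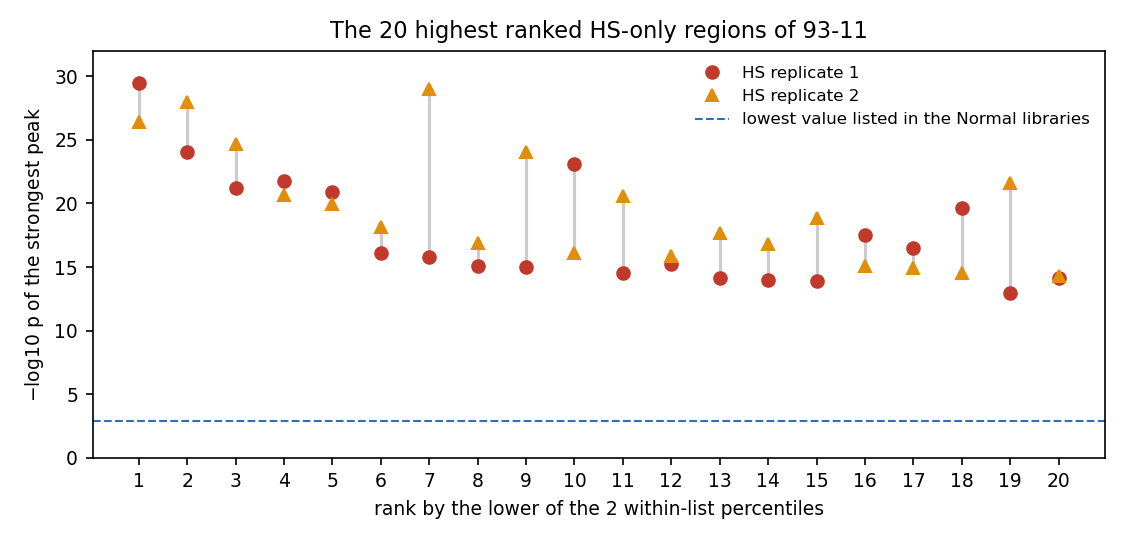
The −log10 p of the strongest peak in HS replicate 1 (red circles) and HS replicate 2 (orange triangles) for the 20 highest ranked HS-only regions of 93-11, joined by a line per region, with the lowest value listed in the Normal libraries dashed. All values lie between 12.99 and 29.4, and neither HS library is the higher throughout. The dashed line is at 2.92, and any HS peak would lie above it, since the lowest value in the HS lists is 3.06.

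Members just inside the rule were at the calling limit. The weakest by rank, at positions 22110755 to 22111048 of chromosome 6, had a −log10 p of 3.06 in HS replicate 1 and 5.62 in HS replicate 2. For the next weakest, at positions 15540814 to 15541059 of chromosome 9, these values were 3.73 and 3.12, and for that at positions 14440690 to 14440928 of chromosome 3 they were 3.09 and 4.51. Just outside it were regions with peaks in both HS libraries and in a single Normal library, 1032 with Normal replicate 1 and 954 with Normal replicate 2. The Normal peak of these regions had a median percentile of 35.4 and 35.1 in its list, and it was in the lowest 10% of the list in 12.4% and 9.85% of them. The strongest of them lay on chromosome 11 from 2343485 to 2344125, with folds of 10.5 and 8.91 under HS and 3.76 in Normal replicate 1. The next were at positions 43400950 to 43401455 of chromosome 1 (8.02 and 8.33, against 2.85 in Normal replicate 1) and at positions 34448644 to 34449033 of chromosome 2 (7.49 and 8.12, against 3.39 in Normal replicate 2). The rule therefore leaves out some sites whose fold under HS was more than 2 times that of their 1 Normal peak.

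The widest HS-only regions were not the highest ranked ones. The widest HS-only region was on chromosome 3 from 2388217 to 2389775 (1559 bp), with folds of 4.54 and 4.45, and its strongest peak was 157 bp wide in HS replicate 1 and 1046 bp wide in HS replicate 2, so that further peaks took part in the merged region. The others above 1 kb were on chromosome 3 from 9651945 to 9653067 (3.48 and 4.66) and from 6357418 to 6358442 (6.36 and 4.63), at positions 1631495 to 1632506 of chromosome 1 (3.63 and 3.46) and at positions 6175239 to 6176247 of chromosome 2 (3.48 and 3.22). None of these 5 was among the 20 highest ranked, and their ranks ran from 117 to 1177 of 1760. They are too few to relate width to strength. The 20 highest ranked had a median width of 361.5 bp, against 320 bp for all members.

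Next, the surroundings of the members were examined, which the rule used only in that no Normal peak may touch a member. A Normal peak lay within 500 bp of 335 HS-only regions (19.03%) and within 1 kb of 559 (31.8%), with a median distance of 2003 bp. In the mixed pairs, a peak of the other 2 libraries lay within 500 bp of 19.03% to 23.2% of regions. In Normal-only regions, an HS peak lay within 500 bp of 9.43%, the HS lists being shorter. In this respect HS-only regions lay at the lower end of the range of the mixed pairs. The comparison is not like for like, since the other libraries of a mixed pair are 1 Normal and 1 HS library, with fewer peaks than 2 Normal libraries. The share fell to 6.48% when each list was limited to 4 times its background and to 5.75% among the 10000 strongest peaks, where fewer Normal peaks remain.

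HS-only regions lay closer to sites open in all 4 libraries than mixed-pair regions did. A region shared by all 4 libraries lay within 1 kb of 160 members (9.09%, Wilson interval 7.84 to 10.5), against 4.76% to 5.996% of the mixed pairs and 5.98% of Normal-only regions. Within 5 kb the share was 27.7%, against 16.0% to 19.9% and 22.5%. The median distance was 13410.5 bp, against 15632 to 17338 bp in the mixed pairs. It was 12934 bp in Normal-only regions, which by this measure lay no farther away than HS-only regions. Conversely, 10.8% of the shared regions had an HS-only region within 10 kb.

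This nearness went with strength. Among the 321 members with at least 4-fold in both HS libraries, a shared region lay within 5 kb of 144 (44.9%, Wilson interval 39.5 to 50.3), against 344 of the other 1439 (23.9%, 21.8 to 26.2). The median distance was 6855 bp in the former and 14977 bp in the latter. The same division of Normal-only regions gave 21.8% and 22.6%. The 4 mixed pairs together gave 27.0% of 122 regions (19.96 to 35.5) and 17.9% of 4160. Judged by 1 library at a time, the share was 37.4% at or above 4-fold in HS replicate 1 against 21.9% below it, and 35.5% against 23.9% in HS replicate 2. The limit of 4-fold was among the alternatives named for the peak lists, but its use for this division was chosen after the values were seen, and none of these differences was tested.

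**Figure D4:**
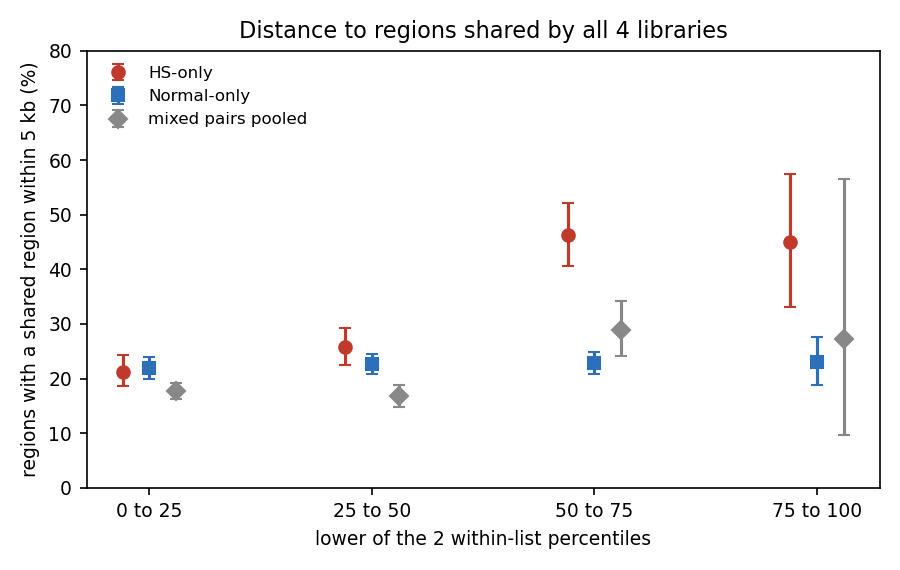
Share of regions (%) with a region shared by all 4 libraries within 5 kb, by the lower of the region's 2 within-list percentiles, for HS-only (red), Normal-only (blue) and the 4 mixed pairs pooled (grey), with 95% Wilson intervals that cover counting error over regions. The HS-only share is 21.3%, 25.7%, 46.3% and 45.0% from the lowest to the highest band, whereas the Normal-only share lies between 21.9% and 23.0%. The share of the pooled mixed pairs also rises, at 17.7%, 16.8%, 28.9% and 27.3%, the last from 11 regions.

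The density of open chromatin around the members was also examined. The 382 complete 1-Mb windows were put in order of their number of shared regions and divided into 3 parts of 127 or 128 windows. HS-only regions numbered 4.297, 4.05 and 5.30 per Mb from the poorest to the richest part. The mixed pairs had 2.44 to 3.42 per Mb in the poorest part and 2.51 to 2.83 in the richest. The richest part held 38.7% of the HS-only regions, and 54.7% of those with at least 4-fold in both HS libraries. For the 4 mixed pairs together these shares were 32.7% and 44.9%, and for Normal-only regions they were 42.9% and 38.6%. The share was thus higher among the stronger regions in both the HS-only class and the mixed pairs, and lower in Normal-only regions.

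HS-only regions occurred on all 12 chromosomes, from 102 on chromosome 12 to 206 on chromosome 1. As a share of the merged regions of a chromosome they ranged from 2.81% on chromosome 3 to 3.61% on chromosome 8, a narrow range. On each chromosome they outnumbered every mixed pair, by a factor over the largest of 1.13 on chromosome 12 to 1.73 on chromosome 5. Per Mb, the number lay between 3.88 on chromosome 11 and 5.09 on chromosome 4. Regions of at least 4-fold in both libraries made up 22.9% to 23.4% of the members on chromosomes 1, 2 and 3, but 12.6% to 19.1% on the other 9 chromosomes. Those 3 chromosomes also have the most shared regions, with 1152 to 1410 each, and the most merged regions of any kind, with 5881 to 6973. In the Normal-only class, regions of at least 4-fold made up 18.1% to 21.2% on these 3 chromosomes. On the other 9 they made up 15.8% to 20.3%. The grouping of chromosomes follows the HS-only shares and was not tested.

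Along the length of the chromosomes, HS-only regions were spread more evenly than shared regions, as were the mixed pairs and Normal-only regions. Each chromosome was divided into 10 equal sections, numbered from its start. The share of HS-only regions ran from 7.5% in section 4 to 13.1% in section 8, whereas that of shared regions ran from 5.49% in section 5 to 14.7% in section 10. The shares of the 4 mixed pairs lay between 7.11% and 12.2%, and those of Normal-only regions between 7.51% and 12.4%. The even spread was therefore not particular to the HS-only class. Lengths were taken as the last peak end on each chromosome. In section 10, HS-only regions were at 9.26%, within the 8.03% to 10.3% of the mixed pairs, against 12.4% of Normal-only regions.

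**Figure D5:**
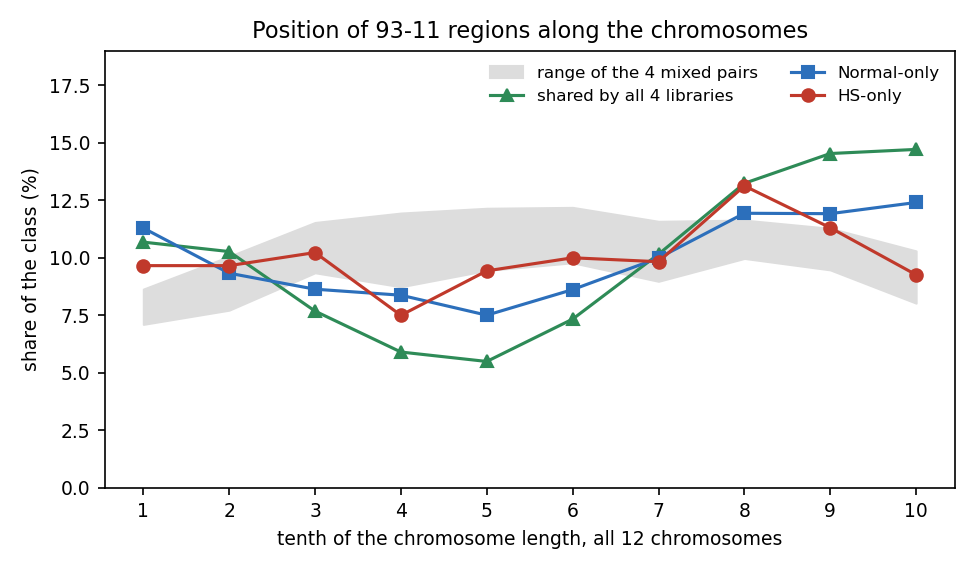
Share of each class (%) in each of 10 equal sections of the chromosome length, over the 12 chromosomes of 93-11, for HS-only (red), Normal-only (blue) and shared regions (green), with the range of the 4 mixed pairs in grey. HS-only regions lie between 7.5% and 13.1%, and shared regions fall to 5.49% in section 5 and reach 14.7% in the last.

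Members were mostly solitary. Another HS-only region lay within 10 kb of 231 (13.1%), whereas an HS-only region lay within 10 kb of 8.43% to 9.68% of mixed-pair regions and 9.14% of Normal-only regions. The share was 33.1% and 39.3% without HS replicates 1 and 2, where the class is larger. Grouping members no more than 10 kb apart gave 1529 singles, 100 groups of 2, 9 groups of 3 and 1 group of 4. A Normal-only region lay within 10 kb of 27.2% of the members, against 25.1% to 25.8% of the mixed-pair regions. Of the 382 windows of 1 Mb, 6 held no member, and the median was 4. The richest held 12, on chromosome 1 from 30 to 31 Mb, where the mixed pairs held 2 to 4. The windows on chromosome 3 (31 to 32 Mb), chromosome 4 (27 to 28 Mb), chromosome 7 (21 to 22 Mb) and chromosome 10 (18 to 19 Mb) held 11 each. In the chromosome 7 window HS-only regions outnumbered Normal-only regions, of which there were 6, while the other 4 windows held 13 to 30 Normal-only regions.

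The corresponding class of Nip was larger. By the same rule Nip had 4997 HS-only regions of 49606, 10.1% of its regions and 7.74 times its largest mixed pair. In Nip the HS lists were the longer ones, with 36279 and 36743 peaks against 31399 and 29542 under Normal. Their background rates were also the higher ones, at 6.79 and 6.85 against 5.31 and 5.21, the reverse of 93-11. List length and background thus moved with the size of the class in both cultivars, and their part in it was not tested. The cultivars differed in how well the HS libraries matched within such regions. The HS peaks overlapped by at least 50% of each in 82.8% of the Nip regions, against 60.6% in 93-11, with percentiles correlated at a Pearson r of 0.738 against 0.347. Peaks of the HS lists were also wider in Nip, with medians of 405 and 402 bp against 233 and 239 bp in 93-11. The part of peak width in the overlap was not tested, and these measures were not taken in the mixed pairs of Nip. Fold over background was of like size, with medians of 3.85 and 3.93 in the Nip HS libraries. A Normal peak lay within 500 bp of 7.98% of the Nip regions, against 19.03% in 93-11. Coordinates are not shared between the cultivars, so whether the same sites opened was not examined, and these differences were not tested.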

How the data were processed

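ATAC-seq peak lists of 8 rice libraries were used, 4 of them from 93-11. In the methods of the study, reads were trimmed (Cutadapt), mapped (Bowtie2) and filtered (SAMtools, Picard), and the authors called peaks in each library by MACS2 with a limit of 0.05 on the adjusted p-value. The submitters' processing notes name BWA 0.7.10-r789, SAMtools 0.1.19, deepTools 2.0 and MACS2 2.1.1 instead, so the aligner is uncertain. A Tn5 shift, a control and the genome build are not given in the sources used here. The deposited value was read as an unadjusted −log10 p, from its range and from 29.6% to 37.8% of the 93-11 values lying within 0.0005 of a Poisson tail at a whole pileup. It rises with depth, so peaks were ranked within lists.

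With Python 3.11.15, NumPy 2.4.6, SciPy 1.17.1 and Matplotlib 3.10.9, the background rate of a list was taken as the Poisson rate that best placed its 12 most frequent values on tails at whole pileups. Fold was the implied pileup over that rate, which understates peaks scored against a higher local background. Peaks of the 4 lists on chromosomes 1 to 12 that overlapped or touched were merged, and each list was represented by its strongest peak in a region. The code was tested on simulated lists with known classes and rates. Named regions were the 20 with the highest lower-of-2 percentile, the 5 widest, the 3 weakest, the 5 windows with most members and the 3 strongest just outside the rule. Members, lists and tests were chosen with earlier results of these data known. Alternatives were other peak thresholds, wider merging, all sequences and leaving out each library. No gene symbols were used, since the gene table at hand describes a japonica assembly.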

Additional observations from a re-analysis of the deposited data

How the results depend on the processing

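No paired analysis was possible because no result comes from a test, and a region class is formed over all 4 libraries at once. The number of HS-only regions stayed within 1.5 times the reported 1760 at a minimum −log10 p of 5 (1316), at 3 and 4 times the background (2336 and 1281), among the 20000 strongest peaks (2194), with wider merging (1785 and 1615) and with all sequences (1780). It was 434 at 6 times the background and 1148 among the 10000 strongest peaks. Of the 1760 members, 321 had both HS peaks at 4 times and 20 at 6 times the background. Most regions counted at those 2 limits thus had a weaker Normal peak that the limit removed. The ratio to the largest mixed pair was 1.93 at a minimum −log10 p of 5, 2.61, 4.12 and 3.65 at 3, 4 and 6 times the background, 5.19 and 3.45 among the 10000 and 20000 strongest peaks, and 1.29 when peaks up to 500 bp apart were merged. The ratio to Normal-only regions was 0.276 at the minimum of 5, 0.578, 0.695 and 0.645 at 3, 4 and 6 times the background, and 0.761 and 0.623 among the 10000 and 20000 strongest peaks. At 4 times the background, among the 10000 strongest peaks and with merging up to 100 bp, the median width was 390, 390 and 328 bp, the share with peaks overlapping by 50% of each was 80.6%, 84.8% and 56.9%, and the share with a Normal peak within 500 bp was 6.48%, 5.75% and 15.1%. The share with a shared region within 1 kb was 7.42% at 4 times the background and 7.06% among the 10000 strongest peaks, and the share with another HS-only region within 10 kb was 17.3% and 19.2%. The causes of these changes were not tested.

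Leaving out 1 library at a time gave 2738 to 8650 HS-only regions, the lowest without Normal replicate 2 and the highest without HS replicate 2, since a class then rests on fewer libraries. The ratio to Normal-only regions was 0.187 to 1.12, and above 1 without HS replicate 2. In each omission this ratio sets a class that needs 1 library against a class that needs 2. The ratio to the largest mixed pair was 0.825 to 0.872. Across the same omissions the median width was 189 to 331 bp, the share with a Normal peak within 500 bp 14.5% to 21.2%, the share with a shared region within 1 kb 7.43% to 10.7%, and the share with another member within 10 kb 16.9% to 39.3%. The overlap of the HS peaks was 61.2% to 61.3% without a Normal library. It and the ratio to the mixed pairs could not be formed without an HS library. Read numbers are unknown, and from peak lists alone a closed site cannot be told from one with signal below the calling limit.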

Other observations

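The single group of 4 HS-only regions lay on chromosome 9 between 19679657 and 19696044. Its members had folds of 4.31, 3.03, 3.40 and 3.18 in HS replicate 1 and 3.73, 3.55, 3.47 and 3.40 in HS replicate 2, so it was formed by weak peaks, and it was chosen for mention after its values were seen. On the 93-11 sequences other than chromosomes 1 to 12, 20 of 714 merged regions were HS-only and 32 were Normal-only, against 12 to 21 per mixed pair, so no excess of HS-only regions was seen there.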
